A study of Homo sapiens with 12 samples.

Results

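Phenylalanine (Phe) as the last amino acid before a premature stop codon was examined in 2 reporter libraries for nonsense-mediated mRNA decay (NMD). The members are the reporter variants with TTT or TTC at bases 4 to 6, a stop codon at bases 7 to 9 and no earlier stop codon in frame. The EJC-independent table lists 1269 of them, which is 86.7% of the 1464 possible and a part of its 41955 variants. The EJC-enhanced table lists 1388 of the 1464 (94.8%) among 51306 variants. A minimum mean normalized count of 10 was required, and 1265 members of the EJC-independent reporter and 1388 of the EJC-enhanced reporter met it. Controls are the same contexts with the tryptophan codon TGG in place of the stop codon, 427 listed for the EJC-independent reporter and 485 for the EJC-enhanced reporter, of which 425 and 484 met the same minimum.

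Every library came from HEK293T cells, a human embryonic kidney line, into whose genome a reporter pool had been placed by Cre-Lox recombination. The 4 groups were SMG1i and DMSO with the EJC-independent reporter, and SMG1i and DMSO with the EJC-enhanced reporter, with 3 replicate libraries each and 12 in all. SMG1i, an inhibitor of the kinase SMG1, was given at 0.5 µM for 24 hours, and DMSO is its vehicle. The labels do not say whether replicates were separate cultures, and the tables hold no value per library and no cellular gene, so neither the spread between libraries nor markers of the cell line could be examined here. The genome position of the inserted reporters was not in the sources used here.

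NMD degrades mRNAs on which translation stops early. SMG1 phosphorylates the helicase UPF1 on such mRNAs, and an exon junction complex (EJC) left downstream of the stop codon by splicing stimulates the step. When a ribosome reaches the stop codon, the release factor eRF1 enters the A site and cuts the bond between the finished peptide and the tRNA in the P site, which is the tRNA of the last amino acid. Phenylalanine has a large aromatic side chain, and in human cells both of its codons are read by tRNAs with the anticodon GAA. Its closest chemical relative is tyrosine, which carries 1 additional hydroxyl group.

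The variable window holds 10 bases: the penultimate codon, the last codon, the stop codon or TGG, and the next base. The sequences below are written 5′ to 3′ in lower case, with the last codon and the stop codon or TGG in capitals. The first set shows both phenylalanine codons before each stop codon and TGG after the same penultimate leucine codon CTC. For 19 penultimate codons, every Phe stop and TGG variant with every next base is listed in both tables. Of these codons, CTC has the highest smallest mean normalized count (461) over all those variants.
TTC before TAA: ctcTTCTAAa
TTC before TAG: ctcTTCTAGa
TTC before TGA: ctcTTCTGAa
TTC before TGG: ctcTTCTGGa
TTT before TAA: ctcTTTTAAa
TTT before TAG: ctcTTTTAGa
TTT before TGA: ctcTTTTGAa
TTT before TGG: ctcTTTTGGa

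Another set has the most counts behind it. These are the stop variants with the highest mean normalized count in both tables, with their control.
Proline CCC then TTC before TAA: cccTTCTAAc
Proline CCC then TTC before TAG: cccTTCTAGc
Proline CCC then TTC before TGA: cccTTCTGAc
Proline CCC then TTC before TGG: cccTTCTGGc

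The last set gives the 3 lowest and the 3 highest members of each reporter among those that reach a mean normalized count of 200, and so shows how far single windows reach.
Lowest, EJC-independent: gttTTCTAGc
Next lowest, EJC-independent: agcTTCTAGc
Least low of the 3, EJC-independent: ctaTTCTAAa
Highest, EJC-independent: tcaTTCTAAa
Next highest, EJC-independent: catTTCTAAa
Least high of the 3, EJC-independent: cagTTCTAAa
Lowest, EJC-enhanced: ttgTTTTGAc
Next lowest, EJC-enhanced: aatTTCTGAa
Least low of the 3, EJC-enhanced: gcgTTCTGAg
Highest, EJC-enhanced: caaTTCTGAg
Next highest, EJC-enhanced: ataTTCTAAc
Least high of the 3, EJC-enhanced: atgTTCTGAg

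Phe stop variants had more RNA under SMG1i than under DMSO in both reporters. The response used throughout is the deposited log2 fold change with its sign reversed, read as SMG1i over DMSO. The tables do not name the numerator. Stop variants are negative as deposited and TGG variants lie near 0, and if the numerator were SMG1i after all, every sign below would turn. In the EJC-independent reporter the mean response was 1.49, a 2.80-fold difference (SD 0.46 over 1265 variants; interval of the mean 1.46 to 1.51). The lowest member had -1.42, the median was 1.45 and the highest 4.44. In the EJC-enhanced reporter the mean was 2.27, a 4.81-fold difference (SD 0.64 over 1388 variants; interval 2.23 to 2.30), and members lay between -0.06 and 7.47 with a median of 2.26. These SDs and intervals run over sequences measured in the same libraries and not over cultures.

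The matched controls lay near 0. Phe TGG variants averaged -0.07 (SD 0.45, n = 425) in the EJC-independent reporter and 0.00 (SD 0.43, n = 484) in the EJC-enhanced reporter. Subtracting the TGG variant with the same other bases left a Phe stop response of 1.55 in the EJC-independent reporter (interval 1.50 to 1.61, 1161 pairs, adjusted p = 3.95e-52). The EJC-enhanced reporter kept 2.27 (interval 2.21 to 2.33, 1379 pairs, adjusted p = 9.70e-62). These p-values are from the mean of the pairs with errors clustered on the penultimate codon. Benjamini-Hochberg adjustment ran over the 20 amino acids, of which 100% passed in both reporters. They measure spread between sequences in the same libraries and are no test of the treatment over cultures. The direction was itself read from stop and TGG values, so they do not test it. Ordered by this paired value, Phe was the fifth lowest of the amino acids in the EJC-independent reporter, where the other 19 lay between 1.48 and 2.14. Among the EJC-enhanced values Phe held place 13 from the bottom, with the others between 2.21 and 2.37.

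Taken variant by variant at the authors' deposited adjusted p under 0.05, 1095 of 1265 Phe stop variants (86.6%) were higher under SMG1i in the EJC-independent reporter, and 0 were lower. Among all stop variants of that reporter 84.8% were called higher and 0.0104% lower. Of the EJC-enhanced variants 1273 of 1388 (91.7%) were higher and 0 lower, against 85.7% and 0.0029% of all its stop variants. The response was below 0 in 4 EJC-independent and 2 EJC-enhanced members, and the deposited p, unadjusted, was under 0.05 in 0 of these. The median mean normalized count was also larger for Phe variants, 418 against 239 for other stop variants in the EJC-independent reporter and 264 against 140 in the EJC-enhanced reporter. The part of depth in the difference between these shares was not tested. Among Phe TGG variants 11 were called higher and 22 lower of 425 in the EJC-independent table, where 4.09% of all TGG variants were higher and 4.03% lower. The EJC-enhanced table called 5 higher and 5 lower of 484, where 2.76% of all TGG variants were higher and 1.37% lower.

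The spread of the members narrowed with depth, while their centre moved less. EJC-independent members with a mean count of 10 to 50 had a mean response of 1.56 (SD 0.97, n = 127). Those with 1000 or more had 1.45 (SD 0.21, n = 368), and the root mean square of their deposited standard errors was 0.12. Other amino acids at 1000 or more had 1.71 (SD 0.27, n = 5206), so Phe also lay lower among the deepest variants. EJC-enhanced members had 2.14 (SD 0.92, n = 104) at 10 to 50 and 2.32 (SD 0.29, n = 125) at 1000 or more. Other amino acids at 1000 or more had 2.28 (SD 0.27, n = 1810) in that reporter.

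Set against the other 19 amino acids in last position, Phe had a low response in the EJC-independent reporter. Its unadjusted means were 1.49 (SD 0.46) for Phe and 1.73 (SD 0.62, n = 27699) for all other stop variants. A linear model with stop codon, next base and penultimate amino acid as covariates, and errors clustered on the 6 bases ahead of the stop codon, put Phe at -0.22 relative to the others (interval -0.25 to -0.19, adjusted p = 2.67e-41 over 20 amino acids). On the linear scale the ratio of SMG1i to DMSO was thus 0.860 times that of the other amino acids. Phe ranked 19 of 20, above tyrosine alone at -0.28 and next to histidine at -0.20, and 75% of the amino acids passed in this reporter. Under all alternatives run the Phe value lay between -0.23 and -0.15 and passed.

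Phe TGG variants differed by -0.04 from other TGG variants of that reporter in the same kind of model (interval -0.09 to 0.00, unadjusted p = 0.0748, adjusted p = 0.299). Among EJC-enhanced TGG variants the Phe difference was -0.01 (interval -0.05 to 0.03, unadjusted p = 0.489, adjusted p = 0.611). Of the 20 amino acids 0% passed in either set of TGG variants.

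In the EJC-enhanced reporter the difference of Phe from the other amino acids did not pass in the main setting. The unadjusted means were 2.27 (SD 0.64) for Phe and 2.29 (SD 0.76, n = 33134) for the other stop variants, and the model gave -0.02 (interval -0.06 to 0.02, adjusted p = 0.656), rank 15 of 20, where 10% of the amino acids passed. Other settings changed that call. With a mean count of at least 50 the Phe value was -0.07 (adjusted p = 0.00461), with inverse variance weights it was -0.03 (adjusted p = 0.0434), and among variants in both tables it was -0.08 (adjusted p = 0.000448). After subtraction of the matched TGG variants it was 0.00 (adjusted p = 0.922).

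The Phe value was lower in the EJC-independent than in the EJC-enhanced reporter. Among variants in both tables it was -0.22 in the EJC-independent and -0.08 in the EJC-enhanced reporter. Over variants in both tables, a model of the difference in response gave Phe -0.14 relative to the other amino acids (interval -0.19 to -0.09, adjusted p = 7.67e-08 over 20 amino acids, of which 60% passed). The Phe value of this model lay between -0.15 and -0.09 and passed under all alternatives run. Tyrosine had -0.30 and histidine -0.14 in it, and glycine was highest at 0.43. The tables were normalized apart, so this value rests on the contrast of Phe with other amino acids within each table. The 2 treatments of each reporter were compared by the authors in separate sets of libraries.

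The responses of single Phe windows hardly correlated between the reporters. The part of measurement error in this was not tested. Of the members, 1237 were listed in both tables, 32 in the EJC-independent table alone and 151 in the EJC-enhanced table alone. Over the 1233 that met the count minimum in both, Pearson's r between the responses was 0.01 and Spearman's rho was -0.00. These points share base composition, and the SDs of single windows given above include deposited standard errors with a root mean square of 0.44 in the EJC-independent and 0.55 in the EJC-enhanced table. The mean over these windows was 1.49 in the EJC-independent and 2.28 in the EJC-enhanced table, and 148 of the 1233 were higher in the EJC-independent table.

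Tyrosine and phenylalanine differ by a hydroxyl group, and the difference in their responses passed in neither reporter with equal weights. In windows matched at every other base, Phe minus tyrosine was 0.05 in the EJC-independent reporter (means 1.48 for Phe and 1.43 for tyrosine, interval -0.01 to 0.11, 604 contexts, adjusted p = 0.138 over all pairs of amino acids). It passed with inverse variance weights, at 0.03 (adjusted p = 0.0270). The EJC-enhanced difference was -0.02 (interval -0.08 to 0.05, 686 contexts, adjusted p = 0.803).

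Tryptophan carries an indole ring and is aromatic as well. Phe minus tryptophan was -0.21 in the EJC-independent reporter (means 1.46 for Phe and 1.68 for tryptophan, interval -0.31 to -0.11, 350 contexts, adjusted p = 0.000138). After subtraction of the matched TGG variants it was -0.13 and no longer passed (adjusted p = 0.280). The EJC-enhanced value was 0.05 (interval -0.03 to 0.14, 476 contexts, adjusted p = 0.524).

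Compared with each of the other 19 amino acids in turn, Phe was lower than 14 and higher than 0 in the EJC-independent reporter, where 74.3% of all pairs passed. The largest differences were with glycine, the smallest residue, at -0.66 (interval -0.73 to -0.59, Phe higher in 65 of 578 contexts) and with threonine at -0.59 (interval -0.65 to -0.53, Phe higher in 84 of 673). Phe minus histidine, an imidazole residue, was 0.01 (interval -0.03 to 0.05) and Phe minus glutamine was -0.03 (interval -0.10 to 0.03), and neither passed. In the EJC-enhanced reporter 0 of the 19 differences passed, as did 0% of all pairs. The paired means with clustered errors gave 1 of 19 at an unadjusted p under 0.05. Of all 191 pairs in that reporter, 12 with a negative and 17 with a positive difference were under that threshold. The 19 values there lay between -0.08 and 0.05.

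Codons that differ from a phenylalanine codon at a single base were compared within the same windows. In the EJC-independent reporter Phe was lower in 11 of 16 such comparisons and higher in 0, where 57.8% of all single-base codon pairs of that reporter passed. Changes of the first base gave isoleucine, leucine or valine codons, all with branched aliphatic side chains. Phe was lower in 6 of these 6, between -0.28 against GTC and -0.13 against CTT. Changes of the middle base split by residue. Against the serine codons, TTC minus TCC was -0.32 (means 1.49 and 1.81, adjusted p = 1.39e-18) and TTT minus TCT was -0.36 (means 1.47 and 1.83, adjusted p = 9.40e-16). Against the tyrosine codons, TTC minus TAC was 0.05 (adjusted p = 0.129) and TTT minus TAT was 0.08 (adjusted p = 0.0894). Against the cysteine codons, TTC minus TGC was -0.07 (adjusted p = 0.0231) and TTT minus TGT was -0.01 (adjusted p = 0.879).

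Changes of the last base give leucine codons. Against TTG, TTC was lower by a log2 difference of -0.12 (adjusted p = 0.00535) and TTT by -0.15 (adjusted p = 0.00119). Against TTA, the differences were 0.04 for TTC (adjusted p = 0.377) and 0.02 for TTT (adjusted p = 0.715). Both leucine codons together gave Phe minus leucine -0.04 (interval -0.10 to 0.01, 550 contexts, adjusted p = 0.131), which passed at -0.09 with a mean count of at least 50 (adjusted p = 0.00336) and at -0.05 with inverse variance weights (adjusted p = 0.0107). The residue and the bases of its codons cannot be told apart where a residue's codons share those bases. After subtraction of matched TGG variants 4 of the 16 EJC-independent comparisons passed, and 35.4% of all such pairs did. Among the EJC-enhanced comparisons 0 of 16 passed, as did 0% of all such pairs there. The lowest adjusted p-values of these paired means were 0.0728 for TTC minus TGC (-0.10) and 0.0764 for TTC minus GTC (-0.10). Comparisons of TTC share the same TTC variants and are not independent. The TTT differences lay between -0.03 against ATT and 0.05 against TGT. In that reporter 1 of 16 passed at a mean count of at least 50 and 1 of 16 with inverse variance weights, where 2.28% and 10.3% of all such pairs did.

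The difference between TTT and TTC passed in neither reporter. EJC-independent variants averaged 1.47 with TTT (SD 0.52, n = 592) and 1.50 with TTC (SD 0.41, n = 673). In 563 matched windows TTT minus TTC was -0.01 (interval -0.06 to 0.03, adjusted p = 0.737 over 87 synonymous pairs, of which 20.7% passed). EJC-enhanced variants averaged 2.31 with TTT (SD 0.71, n = 676) and 2.23 with TTC (SD 0.57, n = 712). In 664 matched windows the difference was 0.08 (interval 0.01 to 0.16, TTT higher in 349). It had an unadjusted p of 0.0224 and an adjusted p of 0.487, where 1.15% of the synonymous pairs passed. It was the highest of the 16 comparisons of a codon ending in T with the one ending in C in that reporter, which lay between -0.11 and 0.08. The 16 EJC-independent values lay between -0.09 and 0.04.

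The CTC windows show these levels in single sequences. In the authors' deposited table (EJC-independent pool), ctcTTTTAAa had a response of 1.37 (deposited SE 0.10), ctcTTTTAGa 1.42 (SE 0.23) and ctcTTTTGAa 1.38 (SE 0.19), and the control ctcTTTTGGa had -0.19 (SE 0.14). In the same authors' deposited table, ctcTTCTAAa had 1.50 (SE 0.11), ctcTTCTAGa 1.71 (SE 0.17) and ctcTTCTGAa 1.46 (SE 0.12), and the control ctcTTCTGGa had -0.11 (SE 0.06). All 6 stop windows lay above both controls. In the authors' deposited table (EJC-enhanced pool), ctcTTTTAAa had 2.66 (SE 0.37), ctcTTTTAGa 2.10 (SE 0.34) and ctcTTTTGAa 2.38 (SE 0.37), against 0.09 (SE 0.25) for ctcTTTTGGa. In that authors' deposited table, ctcTTCTAAa had 2.53 (SE 0.30), ctcTTCTAGa 1.70 (SE 0.33) and ctcTTCTGAa 2.19 (SE 0.26), against 0.07 (SE 0.24) for ctcTTCTGGa. In these single windows TAG was the lowest stop codon after both phenylalanine codons in the EJC-enhanced table and the highest after both in the EJC-independent table. The EJC-independent responses after TTT differed by less than their standard errors. Over all Phe members TAG had the lowest mean in both reporters, as given below.

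The CCC stop windows had 9569 to 11680 mean normalized counts in the EJC-independent table. Their standard errors there were smaller than those of the CTC stop windows. The authors' deposited table gives responses of 1.53 (SE 0.06) for cccTTCTAAc, 1.52 (SE 0.06) for cccTTCTAGc and 1.65 (SE 0.05) for cccTTCTGAc, against 0.02 for cccTTCTGGc. For the EJC-enhanced reporter the authors' deposited table gives 2.36 (SE 0.25) for cccTTCTAAc, 2.19 (SE 0.35) for cccTTCTAGc and 2.34 (SE 0.28) for cccTTCTGAc, against 0.12 for cccTTCTGGc. Here TGA was the highest of the EJC-independent windows, and the EJC-enhanced windows differed by less than their standard errors.

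TGA gave the highest Phe response in the EJC-independent reporter. Among the stop codons TGA is known as the one most often read through. Phe variants averaged 1.58 before TGA (SD 0.46, n = 418), 1.48 before TAA (SD 0.40, n = 429) and 1.40 before TAG (SD 0.51, n = 418). In matched windows TGA minus TAA was 0.09 (interval 0.03 to 0.14, TGA higher in 233 of 386, adjusted p = 0.00780). TGA minus TAG was 0.16 (interval 0.09 to 0.23, TGA higher in 252 of 382, adjusted p = 0.000199). TAA minus TAG was 0.05 (interval -0.02 to 0.13, adjusted p = 0.207). The adjustment ran over the 3 pairs of each of 20 amino acids, of which 61.7% passed.

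The advantage of TGA was not shown to differ from that after other last amino acids. Phe minus the others was -0.06 for TGA minus TAA (interval -0.13 to -0.00, unadjusted p = 0.0467, adjusted p = 0.667) and -0.05 for TGA minus TAG (adjusted p = 0.827), where 1.67% of such comparisons passed. With inverse variance weights both passed, at -0.11 (adjusted p = 8.34e-06) and -0.08 (adjusted p = 0.000709), and the first also with a mean count of at least 50, at -0.11 (adjusted p = 0.00310).

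EJC-enhanced Phe variants averaged 2.31 before TGA (SD 0.69, n = 466), 2.29 before TAA (SD 0.60, n = 468) and 2.20 before TAG (SD 0.63, n = 454). Of the 3 matched differences 0 passed, as did 0% over all amino acids. The paired means gave Phe an unadjusted p of 0.00496 for TGA minus TAG and 0.0193 for TAA minus TAG. Other amino acids had similar values, with 0.00120 after asparagine and 0.0370 after histidine for TAA minus TAG. After Phe, TGA minus TAG was 0.12 (interval 0.04 to 0.20, adjusted p = 0.149) and passed with inverse variance weights at 0.12 (adjusted p = 0.0425). TAA minus TAG was 0.10 (interval 0.02 to 0.18, adjusted p = 0.317). None of the 3 Phe differences from the other amino acids passed, of which 0% passed over all amino acids, with values between 0.01 and 0.08 and 0 of 3 at an unadjusted p under 0.05.

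The base after the stop codon, position 10, is drawn into the A site together with it and is known to tune termination. In the EJC-independent reporter a C at that base went with a lower Phe response. Phe variants averaged 1.42 with C (SD 0.37, n = 349), 1.52 with A (SD 0.60, n = 287), 1.51 with G (SD 0.47, n = 301) and 1.51 with T (SD 0.41, n = 328). In 244 windows with all 4 bases, C minus the mean of the other bases was -0.14 (interval -0.18 to -0.09, C higher in 75, adjusted p = 5.62e-05 over 4 bases of 20 amino acids, of which 8.75% passed). A was at 0.07, G at 0.06 and T at 0.00, and none of these passed, except A with inverse variance weights, at 0.05 (adjusted p = 0.0351). A lower response with C also passed after leucine (-0.07), serine (-0.08) and histidine (-0.08), while glycine had 0.04 and did not pass. The effect of C after Phe differed from that after other amino acids by -0.09 (interval -0.15 to -0.03, unadjusted p = 0.00262, adjusted p = 0.209), and 0% of such comparisons passed. By stop codon, the highest mean was 1.69 for TGA followed by A (SD 0.69, n = 96) and the lowest 1.32 for TAG followed by C (SD 0.37, n = 115).

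In the EJC-enhanced reporter no base at position 10 passed for Phe, and 0% did over all amino acids. C was at 0.07 (interval -0.00 to 0.14), A at 0.04, T at -0.03 and G at -0.08 in 311 windows, and 0 of the 4 had an unadjusted p under 0.05. TAG followed by G had the lowest mean of the 12 combinations, at 1.98 (SD 0.74, n = 111), where other last amino acids had 2.21 (SD 0.80, n = 2606). The other 11 combinations after Phe lay between 2.16 and 2.34. This combination was picked out after its values were seen and was not tested.

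The penultimate codon encodes the residue one place further from the peptidyl-transferase centre. Proline, the cyclic residue, before Phe gave the highest response in the EJC-independent reporter, 1.70 (SD 0.38, n = 96). Its difference from the other penultimate residues before Phe was 0.23 (interval 0.12 to 0.34, adjusted p = 0.0291 over all penultimate and last residues, of which 5.85% passed). It was 0.15 and did not pass after subtraction of matched TGG variants (adjusted p = 0.643). Over the other last amino acids penultimate proline was at 0.09 (interval 0.06 to 0.11). The proline codon CCA gave 1.82 (SD 0.62, n = 24), the highest mean of the 61 penultimate codons before Phe.

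The lowest penultimate residues before Phe in that reporter were glutamine at 1.29 (SD 0.41, n = 42), methionine at 1.32 (SD 0.51, n = 20) and histidine at 1.33 (SD 0.33, n = 47). Glutamine differed from the other residues by -0.21 (interval -0.35 to -0.07, adjusted p = 0.141). Before the other last amino acids, penultimate glutamine was also low at -0.12 (interval -0.16 to -0.07), as was histidine at -0.10 (interval -0.13 to -0.07). Methionine was at 0.00 there (interval -0.07 to 0.07). A second phenylalanine ahead of the first gave 1.37 (SD 0.22, n = 48), a difference of -0.11 (interval -0.22 to -0.00, adjusted p = 0.293). Aspartate, an acidic residue, was at 1.61 (SD 0.63, n = 41) and asparagine at 1.59 (SD 0.74, n = 39). Under other settings the differences of aspartate (0.15) and asparagine (0.11) turned to -0.00 and -0.04 with inverse variance weights, and that of histidine (-0.16) turned to 0.01 after subtraction of TGG variants. The codons TGT at 1.20 (SD 0.32, n = 22), CAC at 1.24 (SD 0.17, n = 24) and AGT at 1.27 (SD 0.46, n = 20) were lowest, and ACA (SD 0.65, n = 19) and GAT (SD 0.63, n = 20) at 1.76 each followed CCA at the top. Across the 61 penultimate codons, which share their libraries, the means with TTT and with TTC had a Pearson's r of 0.27 and a Spearman's rho of 0.40. Of the 20 penultimate residues 1 passed. With inverse variance weights 5 of 20 passed, where 16.8% did over all last amino acids, and after subtraction of TGG variants 0 passed, where 0.815% did.

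Lysine, a basic residue, was the lowest penultimate residue before Phe in the EJC-enhanced reporter. It gave 1.84 and asparagine 1.93 (n = 32 and 44), while methionine gave 2.75 (SD 1.30, n = 20), glutamate 2.49 and aspartate 2.46. Lysine differed from the other residues by -0.46 (interval -0.77 to -0.15, adjusted p = 0.509), and over other last amino acids it was at -0.15 (interval -0.24 to -0.06). A second phenylalanine gave 2.16, a difference of -0.12 (interval -0.23 to -0.00, adjusted p = 0.644). Proline gave 2.33 (difference 0.06, interval -0.01 to 0.14). Of the 20 residues 0 passed, as did 0% over all last amino acids. The unadjusted p of this model was 0.0187 for lysine, 0.0361 for glutamate and 0.0490 for a second phenylalanine. For penultimate phenylalanine before proline it was 0.000186, which did not pass either (adjusted p = 0.0576). The codons AAG at 1.72 (SD 0.57, n = 19), AAT at 1.78 (SD 0.61, n = 21) and GTT at 1.97 (SD 0.45, n = 24) were lowest. ATG at 2.75, GGG at 2.58 (SD 0.90, n = 22) and GTG at 2.52 (SD 1.04, n = 23) were highest. Between the means with TTT and with TTC over the 61 codons, Pearson's r was 0.22 and Spearman's rho 0.15.

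Phe variants were also split by the number of T bases in the penultimate codon, adjacent or not. The same split was not made for other last amino acids. EJC-independent Phe variants averaged 1.51, 1.51, 1.38 and 1.32 with 0, 1, 2 and 3 T bases (n = 517, 520, 204 and 24). EJC-enhanced Phe variants averaged 2.30, 2.27, 2.17 and 2.20 (n = 594, 554, 216 and 24). The 12 stop variants made of 6 T bases had responses from 0.82 to 1.55 with a median of 1.36 in the authors' deposited table (EJC-independent pool), and from 1.37 to 3.07 with a median of 2.22 in the authors' deposited table (EJC-enhanced pool). Of these, all 12 EJC-independent and 11 of 12 EJC-enhanced variants were called higher under SMG1i, where 84.8% and 85.7% of all stop variants were. The 4 matched TGG variants had responses from -0.34 to 0.98 in the authors' deposited table (EJC-independent pool), 1 of them called and lower under SMG1i, and from -0.45 to -0.09 in the authors' deposited table (EJC-enhanced pool), with 0 called.

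At the ends of the range, the lowest EJC-independent windows with a mean count of 200 or more were gttTTCTAGc at 0.60 (SE 0.29), agcTTCTAGc at 0.64 (SE 0.36) and ctaTTCTAAa at 0.73 (SE 0.39) in the authors' deposited table. None of these was called at its deposited adjusted p, and in the authors' deposited table (EJC-enhanced pool) the same windows had 1.98, 2.01 and 2.00. The highest were tcaTTCTAAa at 2.52 (SE 0.32), catTTCTAAa at 2.50 (SE 0.36) and cagTTCTAAa at 2.41 (SE 0.36) in the authors' deposited table. All 3 have TTC, TAA and a following A, as does ctaTTCTAAa among the lowest. Their responses in the authors' deposited table (EJC-enhanced pool) were 2.24, 2.67 and 1.97.

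The lowest EJC-enhanced windows were ttgTTTTGAc at 0.21 (SE 0.76), aatTTCTGAa at 0.63 (SE 0.77) and gcgTTCTGAg at 0.82 (SE 0.40) in the authors' deposited table. In the authors' deposited table (EJC-independent pool) these had 1.56, 1.57 and 1.55, near the Phe mean. The highest were caaTTCTGAg at 4.70 (SE 0.50), ataTTCTAAc at 4.44 (SE 0.54) and atgTTCTGAg at 4.14 (SE 0.66) in the authors' deposited table. Their responses in the authors' deposited table (EJC-independent pool) were 1.39, 1.62 and 1.56, so none of the 3 stood out there.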

How the data were processed

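RNA from 12 libraries was compared by the submitters in 1 table per reporter. Per the file headers, the authors deposited for each variant a mean normalized count (a signal over all libraries of a reporter), the log2 fold change and its SE, the Wald score (their ratio), the p-value and its adjusted form. The submitters' processing notes name DESeq and DESeq2. The sources used here do not give how reads were assigned, and depth per library is unknown from these tables. The mean normalized count of Phe variants with a stop codon made up 5.53% of the summed mean count in the EJC-independent table and 5.33% in the EJC-enhanced table.

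Members and lists were chosen with earlier results of these data known. Because no counts per library were at hand, the count model named first in the design was replaced by its second form. A mean count of at least 10 was required, and variants with an in-frame stop codon before base 7 were left out. Matched differences were averaged with errors clustered on the penultimate codon, and linear models had errors clustered on the 6 bases ahead of the stop codon. Penultimate residues were fitted with the CR2 small-sample correction and Satterthwaite degrees of freedom. All fits ran over all amino acids, with two-sided p-values adjusted by Benjamini-Hochberg within each family and reporter, at 0.05, and intervals at 95%. The scripts were tested on simulated data. Python 3.11.15, numpy 2.4.6, pandas 2.3.3, SciPy 1.17.1 and Biopython 1.88 were used. Errors and p-values cover sequences, not cultures. Single windows named are those behind the highest counts, the CTC windows, and the 3 highest and 3 lowest per reporter with a mean count of 200 or more. Alternatives were no count minimum, a minimum of 50, inverse variance weights, subtraction of matched TGG variants, a term for GC content, variants in both tables, and a deposited adjusted p under 0.01.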

Additional observations from a re-analysis of the deposited data

Results flagged for a closer look

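The Phe value of the last codon differed between the reporters. Relative to the other 19 amino acids, Phe minus the rest was -0.22 in the EJC-independent and -0.02 in the EJC-enhanced reporter. Among variants in both tables the linear model gave -0.22 (adjusted p = 4.15e-38) in the EJC-independent and -0.08 (adjusted p = 0.000448) in the EJC-enhanced reporter. On those variants Phe was thus lower than the other amino acids in both. Over all its own variants the EJC-enhanced value did not pass (adjusted p = 0.656). After subtraction of matched TGG variants that value was 0.0026 (adjusted p = 0.922). The difference itself, tested over the 1233 variants in both tables, was -0.14 on the log2 scale (interval -0.19 to -0.09, linear model with errors clustered on 6 bases, adjusted p = 7.67e-08). Such a difference was not particular to Phe, as 60% of the 20 amino acids passed. Their values ran from tyrosine at -0.30 to glycine at 0.43, with histidine at -0.14. The p-value measures spread between sequences in the same libraries and has no check by replicate cultures.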

How the results depend on the processing

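No paired analysis was possible because the tables give no value per library, and for the same reason leaving out replicates, other size factors and a fit with the replicate number as a block could not be run. Depth per library is unknown, and with deposited standard errors near 0.44 and 0.55 for single windows, results rest on means over many. Of 401 values recomputed under the alternatives, 323 stayed the same. For a test this means the same direction and side of the threshold, and for a number of calls a count of similar size. None of the values that passed turned its sign. The cause of the changes below was not tested.

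The 45 values that turned sign passed in neither setting, and they are given here as Phe differences in log2. With no count minimum, base 10 T gave -0.0036 and base 10 A against other amino acids 0.018 in the EJC-independent reporter, with TTT minus TGT at 0.0050. With a mean count of at least 50 in the EJC-independent reporter, TAA minus TAG against other amino acids was 0.00059, base 10 T was -0.011, base 10 A and T against other amino acids were 0.0067 and -0.013, TTC minus TTA was -0.018 and TTT minus TTA was -0.023. With that minimum in the EJC-enhanced reporter, base 10 A and T against other amino acids were -0.012 and 0.017, Phe minus tryptophan was -0.027, TTC minus TTA -0.035, TTT minus CTT -0.0090, TTT minus TTA -0.00082 and TTT minus TTG -0.036. Inverse variance weights gave TGG variants with Phe 0.0043 in the EJC-independent and 0.0020 in the EJC-enhanced reporter. They gave base 10 T -0.018 in the EJC-independent and 0.0079 in the EJC-enhanced reporter, and, against other amino acids, -0.015 and 0.0081. Phe after asparagine was then -0.037 and after aspartate -0.0029 in the EJC-independent reporter, and TTC minus TTA was -0.013 in the EJC-enhanced reporter.

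Subtraction of matched TGG variants, which leaves fewer windows, turned these in the EJC-independent reporter: TTT minus TTC to 0.043, base 10 T to -0.073, base 10 A against other amino acids to 0.072, Phe minus leucine (TTA and TTG) to 0.033, Phe after arginine to 0.046, Phe after histidine to 0.014 and TTT minus TGT to 0.047. In the EJC-enhanced reporter it turned Phe against other amino acids to 0.0026, base 10 A to -0.0054 and T to 0.019, and base 10 against other amino acids to -0.066 for A, -0.013 for C, 0.069 for G and 0.011 for T. It also turned Phe minus tyrosine there to 0.016, Phe minus leucine to 0.030, TTC minus CTC to 0.010, TTC minus TTG to 0.0075, TTT minus ATT to 0.017 and TTT minus TAT to 0.048.

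Some values passed only under an alternative. A minimum of 50 did so for Phe against other amino acids in the EJC-enhanced reporter (-0.065), and for TGA minus TAA against other amino acids (-0.11) and Phe minus leucine (-0.091) in the EJC-independent reporter. Inverse variance weights did so in the EJC-enhanced reporter for Phe against other amino acids (-0.035) and TGA minus TAG (0.12). In the EJC-independent reporter they did so for TGA minus TAA and TGA minus TAG against other amino acids (-0.11 and -0.084), base 10 A (0.046), Phe minus tyrosine (0.030) and Phe minus leucine (-0.052). Variants in both tables gave Phe against other amino acids -0.080 in the EJC-enhanced reporter. Phe minus tryptophan in the EJC-independent reporter passed no longer after subtraction of TGG variants (-0.13). Of single-base neighbours in the EJC-enhanced reporter 1 of 16 passed at a minimum of 50 and 1 with weights, where 2.28% and 10.3% of all single-base pairs did. Of the EJC-independent neighbours 4 of 16 passed after subtraction of TGG variants, where 35.4% of all pairs did. Penultimate residues that passed in that reporter were 5 of 20 with weights and 0 after subtraction, where 16.8% and 0.815% did over all last amino acids.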
